A study of Mus musculus with 8 samples.

Results

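Glycolysis and the handling of its end product pyruvate were followed through 37 named mouse genes in the gene counts of primary lung fibroblasts (pFBs). The members were taken by gene symbol from the deposited count table, where they account for 38 of 54532 entries because *Aldoa* is listed on 2 entries. Of the 37 members, 36 passed the filter on low counts and were tested among 14150 genes. The exception was *Slc2a4*. RNA sequencing covered pFBs of female mice on a C57/black background, with 4 libraries of wild type mice (WT1 to WT4) and 4 of homozygous transgenic mice (HOMO1 to HOMO4). HOMO mice carry human *IGFBP5* (hIGFBP5), inserted by CRISPR/Cas9 knock-in and driven throughout the body by the Ef1a1 promoter, and WT mice do not. The cells of both genotypes grew out of minced lung pieces in serum-containing medium and received no treatment. The ages of the mice behind these libraries were not given in the sources used here, and the human transgene was not analysed here. The question was which genes of this pathway differed between HOMO and WT pFBs.

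Glycolysis splits glucose into pyruvate in the cytosol and yields ATP and NADH. Pyruvate is then either reduced to lactate by lactate dehydrogenase and exported by monocarboxylate transporters, or carried into mitochondria and oxidised by the pyruvate dehydrogenase complex, which pyruvate dehydrogenase kinases switch off. In fibroblasts, glycolysis serves growth and the synthesis of matrix, and many of its genes are known targets of hypoxia-inducible factor and of Myc.

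The libraries held between 17236521 and 31987790 counted reads, and 3 counts, taken as the floor of counting, corresponded to 0.0908 to 0.172 CPM, the counts of a gene scaled to one common library total. Distances between libraries were uneven. HOMO3 and HOMO4, WT1 and WT2, as well as HOMO1 and HOMO2, were near-identical pairs with biological coefficients of variation of 4.71 to 7.65%, against 30.0 to 56.5% for the other pairs of the same genotype. Nothing in the sources says how many mice the libraries came from, so the p-values measure the spread between these libraries, which may in part be technical. The fibroblast markers were abundant, with all 12 tested and summed levels of 19177 to 25890 CPM in WT and 19265 to 32164 CPM in HOMO. Of these, edgeR called 2, *Vim* and *Pdgfrb*, both lower in HOMO, where it called 6.18% of all tested genes lower. DESeq2 called 6, and 6 had an unadjusted edgeR p under 0.05. Log2 fold changes were below 0 for 8 markers and above 0 for 4. Among the 4 was *Col1a1* at 0.82, which was not called although its genotypes did not overlap. The 12 macrophage markers summed to 141, 171, 2271 and 1322 CPM in WT1 to WT4 and to 59.8 to 208 CPM in HOMO, with 11 tested and 0 called by edgeR, against 7 at an unadjusted p under 0.05 and 5 called by DESeq2. The 12 proliferation markers, all tested and 0 called by edgeR, by DESeq2 or at an unadjusted p under 0.05, summed to 1431, 1261, 203 and 79.0 CPM in WT1 to WT4 and to 195, 184, 1036 and 946 CPM in HOMO1 to HOMO4. Markers of epithelium, endothelium, striated muscle and adipocytes each summed to at most 19.0 CPM in any library. Of these edgeR called *Cdh1* of the epithelium, higher in HOMO, and DESeq2 called 4 epithelial, 1 endothelial and 1 striated muscle marker. WT3 and WT4 thus held more macrophage marker RNA than the other libraries, and values without them are given beside the members whose call, direction or log2 fold change they altered most. That fit has only WT1 and WT2, a near-identical pair, as WT libraries. Its adjusted p-values and calls therefore lack most of the spread between WT libraries. In such bulk samples, fewer cells of a type and less RNA per cell cannot be told apart.

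Of the 36 tested members, 9 were called, meaning that edgeR's quasi-likelihood test gave a log2 fold change beyond 0.6 in either direction with an adjusted p (Benjamini-Hochberg) under 0.05. This is 25.0% of them against 12.1% of all tested genes. The lactate transporter *Slc16a1* was the single member called higher, where 5.94% of all tested genes were called higher. The 8 called lower, or 22.2% of the tested members against 6.18% of all tested genes, were the lactate exporter *Slc16a3*, the phosphofructokinase *Pfkp*, the aldolase *Aldoa*, the lower-pathway enzymes *Tpi1*, *Pgk1*, *Pgam1* and *Eno1*, and the pyruvate dehydrogenase kinase *Pdk4*. Fold changes were below 0 for 30 members and above 0 for 6, or 83.3% below 0 against 52.7% of all tested genes, and their median was −0.49 on the log2 scale against −0.04 for all tested genes. Without WT3 and WT4, 25 members were below 0 and their median was −0.24. In 13 members, 36.1% of those tested, all libraries of one genotype lay above all of the other, against 27.3% of all tested genes. HOMO was lower in 12 of these (13.4% of all tested genes) and higher in 1 (14.0%). DESeq2 called 9 members too, the same ones in the same directions, where it called 16.5% of all genes with an adjusted p.

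The number of called members depended on the libraries. With each library left out in turn, 2 to 11 members and 507 to 2192 of all tested genes were called. With all libraries these counts were 9 and 1716. Without HOMO1 and HOMO2 together only *Slc16a1* and *Pdk4* were called, beside 0.514% of all tested genes. Without WT3 and WT4 together 12 members were called, 3 higher and 9 lower. The share of all tested genes called rose as well, from 12.1% with all libraries to 20.9% without WT3 and WT4. When each near-identical pair was summed into 1 library, leaving 3 WT and 2 HOMO libraries, 0 members and 0 of all genes were called by edgeR, while 9 members and 2057 genes had an unadjusted p under 0.05. *Slc16a1* and *Pdk4* were called in all 8 fits that left out 1 library. In the plot of fold changes with libraries left out or summed, the 13 members without overlap kept their direction in each fit. They were chosen because no library of one genotype reached the other. Leaving out or summing libraries could thus hardly turn them, and the kept direction is no test of these members.

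**Figure D1:**
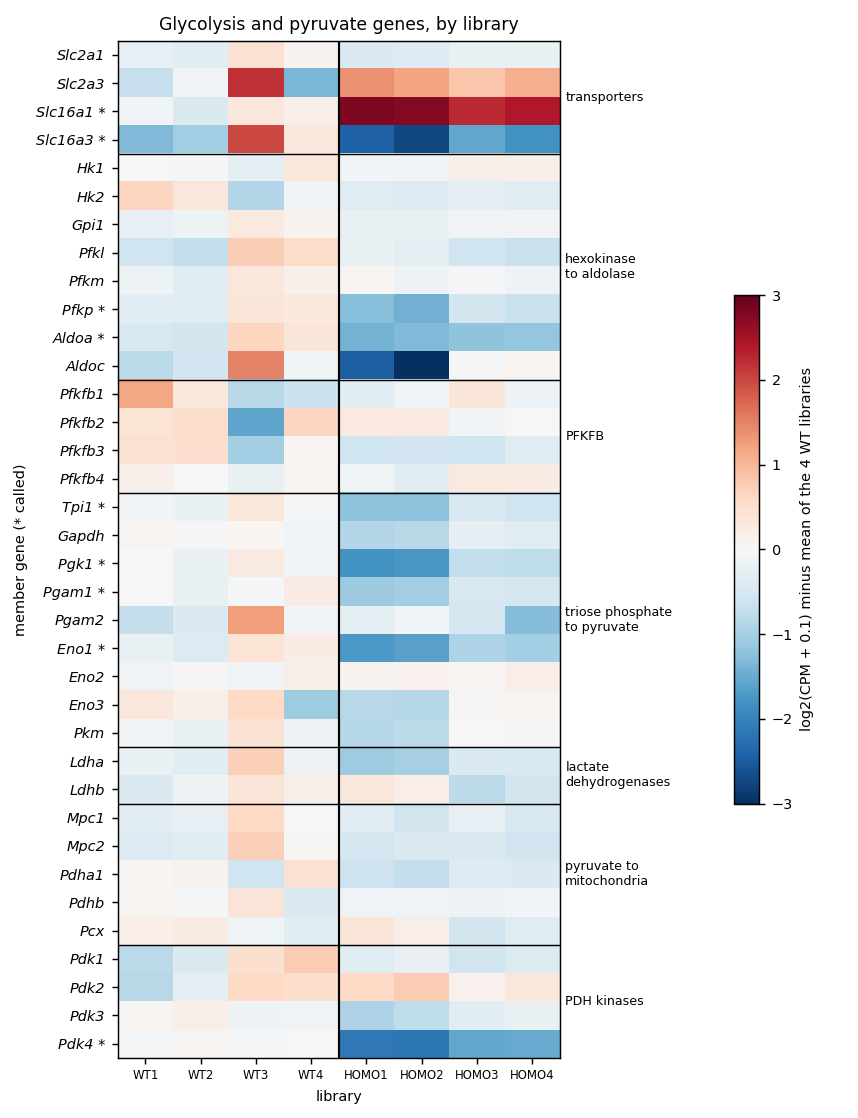
Heat map of the 36 tested members (rows, grouped by role) in the 8 libraries (columns). Colour gives log2(CPM + 0.1) minus the mean of the 4 WT libraries of that gene, red higher and blue lower, and asterisks mark the 9 called members. *Slc16a1* is red in all 4 HOMO libraries, *Tpi1*, *Gapdh*, *Pgk1*, *Pgam1* and *Eno1* are darkest blue in HOMO1 and HOMO2, and WT3 is the highest WT library in 22 rows.

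**Figure D2:**
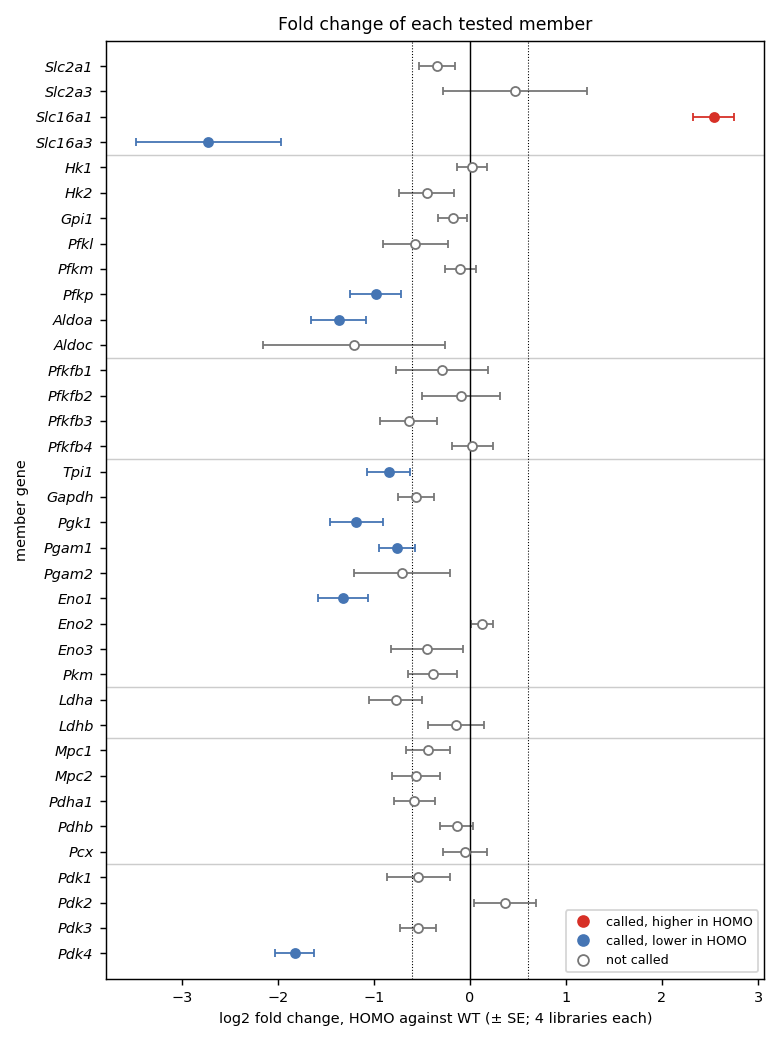
Log2 fold change of HOMO against WT (x axis, points with standard errors) for the 36 tested members (y axis, ordered by role), with dotted lines at the threshold of 0.6 on either side of 0. Filled points are the 9 called members. *Slc16a1* at 2.54 stands alone on the right, and *Slc16a3* at −2.73 has the lowest value and a standard error of 0.75.

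The lactate transporters changed in opposite directions. *Slc16a1* encodes the monocarboxylate transporter MCT1, which carries lactate and pyruvate across the plasma membrane in either direction, and lies on chromosome 3 from 104638668 to 104658462 (GRCm38, plus strand). Its level was 27.6, 21.6, 37.2 and 33.1 CPM in WT1 to WT4, and 204, 198, 138 and 155 CPM in HOMO1 to HOMO4. The lowest HOMO library stood well above the highest WT library. The mean rose 5.81-fold, from 29.9 ± 6.76 to 174 ± 32.05 CPM (SD, n = 4 libraries each), with a log2 fold change of 2.54 (SE 0.21, edgeR adjusted p = 7.21e-04). Without WT3 and WT4 the log2 fold change was 2.82, without HOMO1 and HOMO2 it was 2.30, and with the near-identical libraries summed it was 2.48 (edgeR adjusted p = 0.108). Genes of chromosome 3 as a group ran the other way, with a median log2 fold change of −0.23 over 683 tested genes and a shift of 0.35 upward in WT3.

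*Slc16a3* encodes MCT4, a lactate exporter typical of strongly glycolytic cells, and lies on chromosome 11 from 120948480 to 120960868. It had 5.51, 6.69, 56.5 and 17.8 CPM in WT1 to WT4 and 2.50, 2.03, 4.66 and 3.91 CPM in HOMO1 to HOMO4. The genotypes did not overlap, yet the gap between WT2 and WT3 was far wider than that between the genotypes. HOMO differed by a log2 fold change of −2.73 (SE 0.75, edgeR adjusted p = 0.0464), and the mean was 21.6 ± 23.9 CPM in WT and 3.27 ± 1.22 CPM in HOMO. The 2 libraries in which it was highest were those with the most macrophage marker RNA, and the part of this in the result was not tested. Without them the log2 fold change was −0.91 (edgeR adjusted p = 0.0916), and the call held in 2 of the 8 fits that left out 1 library, those without WT1 and without WT2. Per kilobase of exon, the ratio of *Slc16a1* to *Slc16a3* was 6.02, 3.88, 0.790 and 2.24 in WT1 to WT4 and 98.2, 117, 35.6 and 47.7 in HOMO1 to HOMO4. MCT1 transcripts were thus the more abundant form in 7 of 8 libraries, WT3 being the exception.

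The glucose transporters gave no call. *Slc2a1*, the widely expressed GLUT1 and the most abundant glucose transporter per kilobase here, had 61.8, 59.2, 101 and 78.5 CPM in WT1 to WT4 and 53.9, 55.9, 63.3 and 63.6 CPM in HOMO1 to HOMO4. The HOMO values fell within a narrow band that overlapped WT1 and WT2 (log2 fold change −0.34, SE 0.19, edgeR adjusted p = 0.234, and −0.033 without WT3 and WT4). *Slc2a3*, the high-affinity GLUT3, ranged from 0.387 to 5.62 CPM in WT and from 2.13 to 3.17 CPM in HOMO, with WT3 the highest library of all. Its log2 fold change was 0.47 with all libraries (edgeR adjusted p = 0.702). Without WT3 and WT4, against a near-identical WT pair, it was 1.59 (edgeR adjusted p = 0.0138). *Slc2a4*, the insulin-responsive GLUT4 of muscle and fat, had between 0 and 7 counts per library and was left out of the fit. Its mean was 0.141 CPM in WT and 0.0696 CPM in HOMO, a difference smaller than the spread between libraries (two-sided exact permutation test over 70 assignments, p = 0.714, smallest possible p 0.0286).

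In the steps from hexokinase to aldolase, 2 of 8 members were called, both lower in HOMO, where 6.18% of all tested genes were called lower. *Aldoa*, which splits the phosphorylated hexose into triose phosphates, was the second most abundant member per kilobase in WT pFBs (321 CPM per kilobase, 124 in HOMO). Its main entry, on chromosome 7 from 126795234 to 126800751 (minus strand), had 632, 599, 1379 and 1127 CPM in WT1 to WT4 and 328, 349, 381 and 389 CPM in HOMO1 to HOMO4. All HOMO libraries lay close together and below all WT libraries, among which WT3 and WT4 were far above WT1 and WT2. The log2 fold change was −1.37 (SE 0.28, edgeR adjusted p = 0.0189), from a mean of 934 ± 382 to 362 ± 28.5 CPM. It was −0.77 without WT3 and WT4 (edgeR adjusted p = 0.00289), and the call was lost without HOMO1 and without HOMO2. Genes of chromosome 7 as a group were shifted by 0.35 upward in WT3 relative to the other WT libraries, and their median log2 fold change was −0.29 over 1047 tested genes. The second *Aldoa* entry had at most 0.852 CPM in any library.

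*Pfkp*, the platelet form of phosphofructokinase, which commits sugar to glycolysis, lies on chromosome 13 from 6579768 to 6648777. It had 37.4, 35.7, 59.7 and 57.7 CPM in WT1 to WT4 and 19.1, 16.9, 31.5 and 29.0 CPM in HOMO1 to HOMO4. HOMO3 came within 4.26 CPM of WT2, the closest approach of the genotypes. HOMO was lower by a log2 fold change of −0.98 (SE 0.27, edgeR adjusted p = 0.0452), and the call was lost in each of the 8 fits that left out 1 library. It was −0.60 without WT3 and WT4 (edgeR adjusted p = 0.123). Genes of chromosome 13 as a group had a median log2 fold change of −0.21 over 538 tested genes. *Pfkp* was the least abundant of the 3 phosphofructokinases, with 7.05 to 8.65% of their summed level per kilobase in WT and 3.51 to 6.72% in HOMO, which did not overlap. The liver form *Pfkl* and the muscle form *Pfkm* had log2 fold changes of −0.57 and −0.10 and were not called, with *Pfkl* at 218 and 192 CPM in WT3 and WT4 against 79.6 to 114 CPM in the other 6 libraries. Without WT3 and WT4 both turned, to 0.22 and 0.16.

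The hexokinases, which trap glucose in the cell, and the isomerase *Gpi1* were not called. *Hk1* had 110.3 to 168 CPM in WT and 125 to 148 CPM in HOMO (log2 fold change 0.02, SE 0.15). *Hk2*, the inducible form, had 37.7 to 109.7 CPM in WT and 53.3 to 58.0 CPM in HOMO. Its log2 fold change was −0.45 (edgeR adjusted p = 0.306). Without WT3 and WT4, against a near-identical WT pair, it was −0.85 and called (edgeR adjusted p = 0.00253). *Gpi1* had 308 to 444 CPM in WT and 309 to 339 CPM in HOMO (log2 fold change −0.18, and 0.026 without WT3 and WT4), and *Aldoc*, the brain aldolase, stayed at or under 4.25 CPM in all libraries (log2 fold change −1.21, SE 0.95, and −0.16 without WT3 and WT4).

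None of the 4 PFKFB genes, whose enzymes make and remove the main allosteric activator of phosphofructokinase, was called by edgeR or DESeq2, and 0 had an unadjusted p under 0.05. The most abundant was *Pfkfb3*, with 87.3, 90.7, 31.7 and 66.8 CPM in WT1 to WT4 and 42.2, 43.0, 42.4 and 49.8 CPM in HOMO1 to HOMO4. WT3 lay below and the other WT libraries above all HOMO libraries. *Pfkfb3* had a log2 fold change of −0.64 (SE 0.29, edgeR adjusted p = 0.169). Without WT3 and WT4, against a near-identical WT pair, it reached −1.01 (edgeR adjusted p = 0.00112). *Pfkfb2* had 6.48 CPM in WT3 and 18.5 to 30.7 CPM in the other 7 libraries (log2 fold change −0.09, and −0.34 without WT3 and WT4). *Pfkfb1* and *Pfkfb4* stayed at or under 8.41 CPM, with log2 fold changes of −0.29 and 0.02, and of −0.88 and −0.042 without WT3 and WT4.

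The lower pathway from triose phosphate to pyruvate held the most calls, with 4 of 9 members lower in HOMO and 0 higher. The median log2 fold change of the 9 was −0.71. Of all tested genes 6.18% were called lower, and their median was −0.04. *Pgk1*, the first ATP-yielding enzyme of the pathway (chromosome X from 106187100 to 106203699), had 462, 400.0, 553 and 426 CPM in WT1 to WT4 and 132, 136, 273 and 270.5 CPM in HOMO1 to HOMO4. HOMO1 and HOMO2 were the lowest, HOMO3 and HOMO4 lay between them and WT, and the genotypes did not overlap. The log2 fold change was −1.18 (SE 0.28, edgeR adjusted p = 0.0297), from a mean of 460.5 ± 67.1 to 203 ± 79.4 CPM. It was −0.75 without HOMO1 and HOMO2 (edgeR adjusted p = 0.195) and −1.09 without WT3 and WT4 (edgeR adjusted p = 0.0493), and the call was lost without WT1, without HOMO1 and without HOMO2.

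*Eno1*, the ubiquitous enolase (chromosome 4 from 150236721 to 150248879), had 644, 561, 1004 and 879 CPM in WT1 to WT4 and 227, 243, 394 and 373 CPM in HOMO1 to HOMO4. Again HOMO1 and HOMO2 were lowest, and WT3 and WT4 were highest. *Eno1* had a log2 fold change of −1.32 (SE 0.26, edgeR adjusted p = 0.0166). It was −0.96 without WT3 and WT4 (edgeR adjusted p = 0.0270), and −1.002 without HOMO1 and HOMO2 (edgeR adjusted p = 0.218). The call was lost without HOMO1 and without HOMO2. Genes of chromosome 4 were shifted by 0.34 upward in WT4, with a median log2 fold change of −0.07 over 845 tested genes. Per kilobase, *Eno1* exceeded the neuronal enolase *Eno2* by 10.96 to 21.7 times in WT and by 4.21 to 7.59 times in HOMO, without overlap. *Eno2* itself had 40.3 to 49.2 CPM in WT and 45.4 to 50.2 CPM in HOMO (log2 fold change 0.12, SE 0.12), and the muscle enolase *Eno3* had 16.1 to 51.1 CPM in WT and 18.7 to 36.0 CPM in HOMO (log2 fold change −0.45).

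*Tpi1*, which interconverts the triose phosphates (chromosome 6 from 124810586 to 124814296), had 382, 357, 519.9 and 389 CPM in WT1 to WT4 and 177, 175, 295 and 268 CPM in HOMO1 to HOMO4. Its log2 fold change was −0.85 (SE 0.22, edgeR adjusted p = 0.0392), and it stayed called in the fits without WT3 and without HOMO3 and in none of the other 6 that left out 1 library. Without WT3 and WT4 together it was −0.69 and not called (edgeR adjusted p = 0.0629). *Pgam1*, the main phosphoglycerate mutase (chromosome 19 from 41911923 to 41918660), had 216, 185, 209.7 and 253 CPM in WT1 to WT4 and 101, 104, 155 and 149 CPM in HOMO1 to HOMO4. *Pgam1* had a log2 fold change of −0.76 (SE 0.19, edgeR adjusted p = 0.0320), and the call was lost without WT1, WT4, HOMO1, HOMO2 or HOMO4. It was −0.66 and called without WT3 and WT4 together (edgeR adjusted p = 0.0484). In *Tpi1* as in *Pgam1*, all WT libraries lay above all HOMO libraries and HOMO1 and HOMO2 below HOMO3 and HOMO4. The muscle mutase *Pgam2* stayed at or under 7.57 CPM (log2 fold change −0.71, SE 0.50, and 0.11 without WT3 and WT4).

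*Gapdh*, which yields NADH and is often used as a reference gene for loading, was the most abundant member per kilobase in both genotypes. It had 1957, 1764, 1928 and 1745 CPM in WT1 to WT4 and 997, 1037, 1532 and 1441 CPM in HOMO1 to HOMO4. The genotypes did not overlap, but with a log2 fold change of −0.56 (SE 0.19, edgeR adjusted p = 0.0820) it was not called. The mean was 1849 ± 109 CPM in WT and 1252 ± 274 CPM in HOMO, 1.48-fold lower. Under DESeq2 the adjusted p was 0.0331, with a log2 fold change of −0.57 that stayed inside the threshold. *Gapdh* has 95 near-identical annotated copies, mostly pseudogenes, whose own counts came to 0.336 to 0.599% of those of *Gapdh*. *Pkm*, which makes pyruvate, had 1151 to 1809 CPM in WT and 742 to 1329 CPM in HOMO and was not called (log2 fold change −0.39, SE 0.26, edgeR adjusted p = 0.328, and −0.22 without WT3 and WT4), with HOMO3 and HOMO4 above 3 of the 4 WT libraries. The 2 splice forms of *Pkm* were not separated in these gene counts.

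The promoters of *Pgk1* and *Pgam1*, which fell, and of *Slc16a1*, which rose, are shown because each holds the core of the hypoxia response element, the letters ACGTG, searched on both strands. Sequences are from RefSeq, the 250 bases before the annotated start on the gene's own strand (GRCm38.p6, all plus strand), and capitals mark ACGTG or its reverse complement CACGT, which in *Slc16a1* merge into the E-box CACGTG.
Pgk1, chrX:106186850-106187099: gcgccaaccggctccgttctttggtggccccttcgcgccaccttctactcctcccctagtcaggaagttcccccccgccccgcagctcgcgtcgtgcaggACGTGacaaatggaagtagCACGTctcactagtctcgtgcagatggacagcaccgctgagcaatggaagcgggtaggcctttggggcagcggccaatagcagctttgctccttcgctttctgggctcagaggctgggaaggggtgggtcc
Pgam1, chr19:41911621-41911870: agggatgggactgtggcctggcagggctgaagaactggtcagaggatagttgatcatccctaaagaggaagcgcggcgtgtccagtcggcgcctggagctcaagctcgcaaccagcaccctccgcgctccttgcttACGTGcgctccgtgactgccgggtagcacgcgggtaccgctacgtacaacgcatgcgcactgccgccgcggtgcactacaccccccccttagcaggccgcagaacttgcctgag
Slc16a1, chr3:104638414-104638663: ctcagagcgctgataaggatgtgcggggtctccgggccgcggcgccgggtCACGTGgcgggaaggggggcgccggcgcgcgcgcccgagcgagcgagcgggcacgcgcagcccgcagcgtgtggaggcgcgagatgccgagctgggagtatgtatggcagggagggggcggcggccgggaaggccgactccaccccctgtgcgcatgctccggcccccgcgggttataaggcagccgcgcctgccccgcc
In the table used, 35 members had 1 or more promoters, 56 in all. ACGTG stood in 20 of these 56 promoters (35.7%), against 16.6% of all 32851 promoters of that length, and CACGTG, which contains it, in 7 (12.5%) against 6.02%. The related letters GCGTG stood in 29 (51.8%) against 28.2%. By gene, 16 members had ACGTG in a promoter, of which 5 were called, namely *Slc16a1*, *Slc16a3*, *Aldoa*, *Pgk1* and *Pgam1*. Of the 19 members without it, 4 were called. Over all tested genes 12.1% were called. The shares of all promoters are by promoter, so they cannot be set beside the 16 members counted by gene. The median log2 fold change was −0.42 for the members with these letters and −0.56 for those without. A match of letters is a description of these windows and not a binding site.

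**Figure D3:**
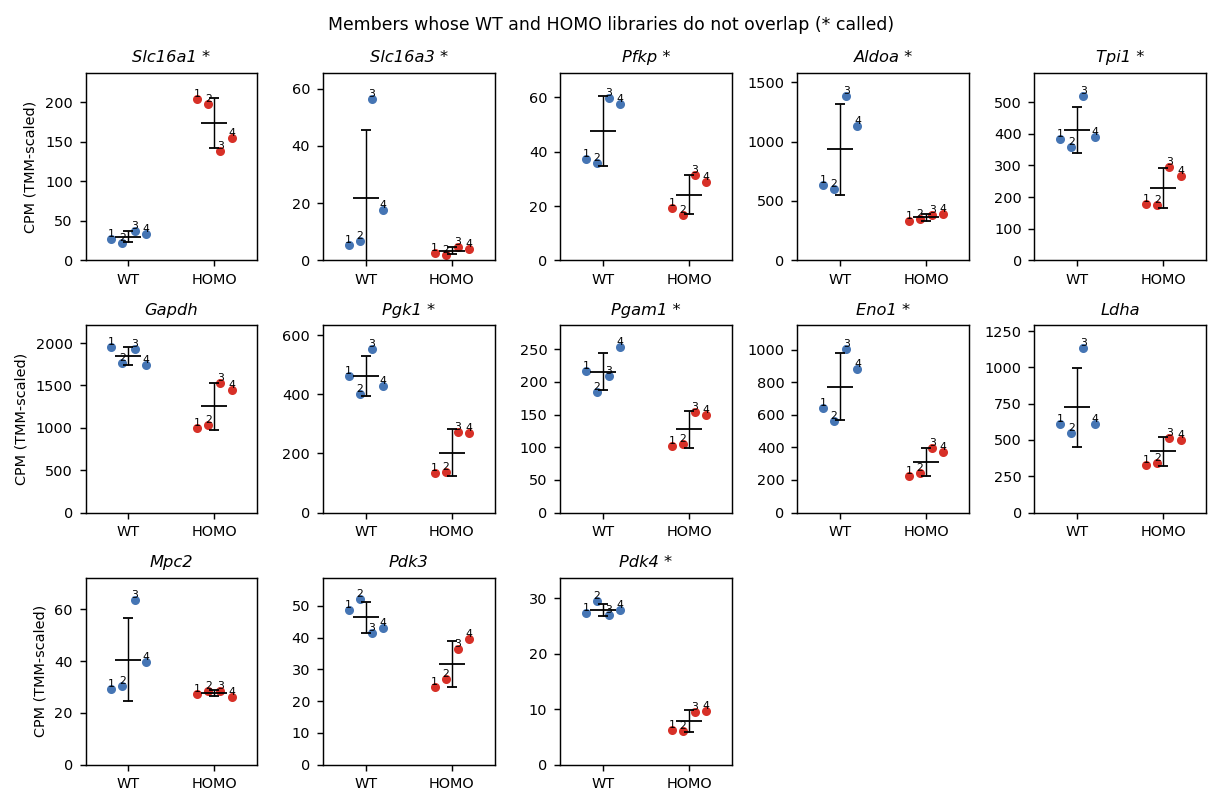
CPM (y axes, from 0) of the 13 members whose WT (blue) and HOMO (red) libraries do not overlap, 1 panel per gene. Points are single libraries labelled by replicate number, and bars give mean ± SD over 4 libraries. HOMO1 and HOMO2 are the lowest points in all panels but those of *Slc16a1* and *Mpc2*, and WT3 is the highest in *Slc16a3*, *Pfkp*, *Aldoa*, *Tpi1*, *Pgk1*, *Eno1*, *Ldha* and *Mpc2*.

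Neither lactate dehydrogenase was called by edgeR or DESeq2, and 1 had an unadjusted edgeR p under 0.05. *Ldha*, whose product favours the making of lactate (chromosome 7 from 46841475 to 46855627), had 608, 548, 1132 and 609 CPM in WT1 to WT4 and 329, 345, 515 and 503 CPM in HOMO1 to HOMO4. The genotypes did not overlap, with HOMO3 just under WT2. The log2 fold change was −0.78 (SE 0.28, edgeR adjusted p = 0.0956) and −0.45 without WT3 and WT4. Genes of chromosome 7 as a group had a median log2 fold change of −0.29 and were shifted by 0.35 upward in WT3. *Ldhb*, whose product favours the making of pyruvate, had 43.9 to 77.5 CPM in WT and 33.96 to 75.3 CPM in HOMO (log2 fold change −0.15, SE 0.29, and 0.16 without WT3 and WT4). Per kilobase, the ratio of *Ldha* to *Ldhb* was 4.32 to 6.93 in WT, 2.07 and 2.40 in HOMO1 and HOMO2, and 7.19 and 5.93 in HOMO3 and HOMO4. HOMO1 and HOMO2 thus lay below all WT libraries, HOMO3 above them and HOMO4 among them.

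The 5 genes that bring pyruvate into mitochondrial metabolism gave 0 calls by edgeR or DESeq2 and 1 unadjusted edgeR p under 0.05, and all 5 had log2 fold changes below 0, from −0.58 to −0.05. *Pdha1*, the catalytic subunit of pyruvate dehydrogenase and the most abundant of them (chromosome X from 160122209 to 160138413), had 247, 255, 156 and 327 CPM in WT1 to WT4 and 155, 145, 183 and 177 CPM in HOMO1 to HOMO4. Only WT3 fell among the HOMO libraries. The log2 fold change was −0.58 (SE 0.22, edgeR adjusted p = 0.105). Without WT3 and WT4, against a near-identical WT pair, it was −0.61 (edgeR adjusted p = 0.00921). *Pdhb*, its partner subunit, had 53.9 to 94.6 CPM in WT and 64.9 to 68.0 CPM in HOMO (log2 fold change −0.14).

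The carrier subunit *Mpc2* (chromosome 1 from 165460637 to 165481214) had 29.1, 30.2, 63.8 and 39.5 CPM in WT1 to WT4 and 27.2, 28.4, 28.5 and 26.1 CPM in HOMO1 to HOMO4. WT1 stood 0.550 CPM above the highest HOMO library, so the lack of overlap is narrow. *Mpc2* had a log2 fold change of −0.56 (SE 0.25, edgeR adjusted p = 0.158) and −0.11 without WT3 and WT4. The other carrier subunit, *Mpc1*, had 13.2 to 25.4 CPM in WT and 11.5 to 14.2 CPM in HOMO (log2 fold change −0.44, and −0.095 without WT3 and WT4). Its counts are uncertain, since 23.1% of its exon length is shared with a gene on the other strand and 2 near-identical copies held 11.1 to 21.0% as many counts. The strand setting of the counting was not given in the sources used here. *Pcx*, the pyruvate carboxylase, had 70.6 to 103 CPM in WT and 60.0 to 112 CPM in HOMO (log2 fold change −0.05).

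Among the 4 pyruvate dehydrogenase kinases, *Pdk4* alone was called. *Pdk4*, known as the fasting- and lipid-responsive kinase (chromosome 6 from 5483351 to 5496309, minus strand), had 27.3, 29.5, 26.97 and 27.9 CPM in WT1 to WT4 and 6.197, 6.17, 9.43 and 9.73 CPM in HOMO1 to HOMO4. The WT libraries were nearly equal, WT3 and WT4 included, and every HOMO library was far below them. The mean fell from 27.9 ± 1.11 to 7.88 ± 1.96 CPM, 3.54-fold lower, with a log2 fold change of −1.83 (SE 0.20, edgeR adjusted p = 0.00217). It was −1.85 without WT3 and WT4, −1.54 without HOMO1 and HOMO2, and −1.81 with near-identical libraries summed (edgeR adjusted p = 0.201).

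*Pdk3*, the most abundant kinase of the family here (chromosome X from 93764607 to 93832201), had 48.8, 52.2, 41.6 and 42.9 CPM in WT1 to WT4 and 24.3, 27.1, 36.3 and 39.6 CPM in HOMO1 to HOMO4. HOMO4 lay just under WT3. The log2 fold change was −0.54 (SE 0.18, edgeR adjusted p = 0.0829). Without WT3 and WT4, against a near-identical WT pair, it was −0.67 and called (edgeR adjusted p = 0.0472). *Pdk1*, a known hypoxia target, had 17.4 to 51.2 CPM in WT and 19.9 to 25.6 CPM in HOMO, with WT3 and WT4 the highest (log2 fold change −0.54, edgeR adjusted p = 0.286, and 0.20 without WT3 and WT4). *Pdk2* had 11.03 to 29.8 CPM in WT and 21.4 to 33.3 CPM in HOMO. Its log2 fold change was 0.36 (edgeR adjusted p = 0.469). Against the near-identical WT1 and WT2, without WT3 and WT4, it was 1.02 and called (edgeR adjusted p = 0.0203). As shares of the 4 kinases per kilobase, *Pdk4* made up 19.7 to 23.9% in WT and 6.72 to 10.2% in HOMO, and *Pdk2* 10.7 to 24.3% in WT and 25.9 to 40.2% in HOMO. Neither share overlapped between the genotypes. Shares of one family depend on each other, so a lower *Pdk4* raises the share of *Pdk2*. The CPM of *Pdk2* itself overlapped between the genotypes.

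As a mean per library, the 36 tested members stood at 5.77, 5.76, 6.21 and 5.95 log2 CPM in WT1 to WT4 and at 5.40, 5.37, 5.64 and 5.62 log2 CPM in HOMO1 to HOMO4. The genotypes did not overlap in this mean, and the difference of HOMO minus WT was −0.41, beside 0.04 for the mean over all tested genes. It was −0.12 when the median over members was taken in place of the mean and −0.63 as the log2 of their summed CPM. WT3 was the highest library and HOMO2 the lowest. The members took 0.808, 0.741, 0.968 and 0.767% of counted reads in WT1 to WT4 and 0.478, 0.492, 0.668 and 0.651% in HOMO1 to HOMO4. By role, the mean difference was −0.67 from triose phosphate to pyruvate, −0.59 from hexokinase to aldolase, −0.59 for the pyruvate dehydrogenase kinases, −0.47 for the lactate dehydrogenases, −0.32 for pyruvate entry, −0.12 for the PFKFB genes and 0.31 for the transporters. The genotypes overlapped in the transporter and PFKFB means and not in the other 5.

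Within the genotypes, the members split along the near-identical pairs. HOMO1 and HOMO2 both lay below HOMO3 and HOMO4 in 19 of the 36 tested members (52.8%, against 37.2% of all tested genes) and above them in 9. WT3 and WT4 both lay above WT1 and WT2 in 18 members (50.0%, against 30.9% of all tested genes) and below them in 5. The summed proliferation markers were high in WT1, WT2, HOMO3 and HOMO4 and low in the other 4 libraries, and the macrophage markers were highest in WT3 and WT4. Their part in these splits was not tested.

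**Figure D4:**
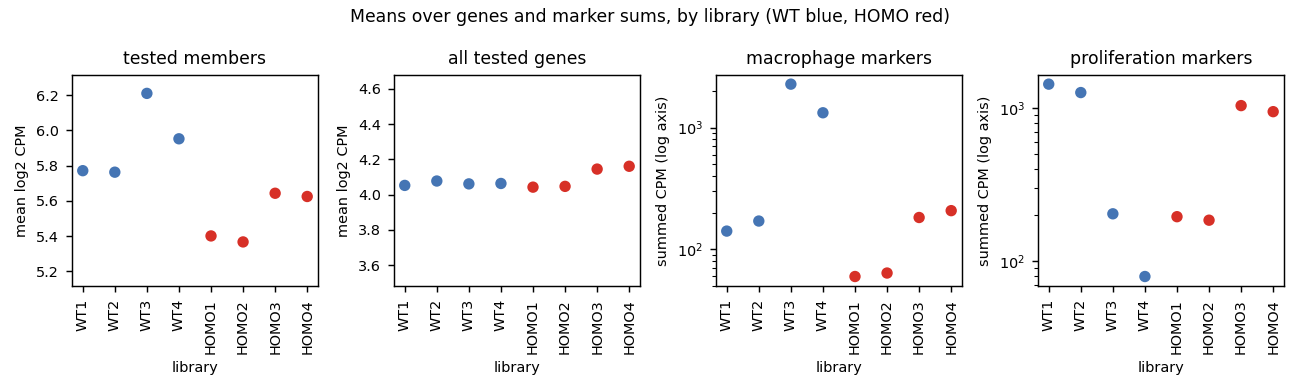
Mean log2 CPM of the 36 tested members and of all tested genes (first and second panels, y axes of equal span), and summed CPM of the macrophage and proliferation markers (the other panels, log axes), for each library (x axis, WT blue, HOMO red). The member mean is lower in all 4 HOMO libraries than in any WT library, while the macrophage sum peaks in WT3 and WT4 and the proliferation sum in WT1, WT2, HOMO3 and HOMO4.

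The genes around the pathway were taken from lists rather than by how they moved. Of all tested genes, 12.1% were called, for comparison with the counts in these lists. Of 24 other glycolysis genes, 16 were tested and 1 was called, *Bpgm*, the mutase that makes a side product of lower glycolysis, which had a log2 fold change of −1.65 (SE 0.31, edgeR adjusted p = 0.0134). Of 9 other genes of the pyruvate dehydrogenase complex, 8 were tested and 1 was called, the phosphatase *Pdp1*, which switches the complex on. It rose from 6.64 to 11.1 CPM in WT to 15.2 to 26.2 CPM in HOMO, without overlap (log2 fold change 1.23, SE 0.25, edgeR adjusted p = 0.0190). *Pdp1* and *Pdk4*, which act on the same subunit in opposite directions, thus differed in opposite directions. The other kinases of that subunit, *Pdk1*, *Pdk2* and *Pdk3*, were not called, with log2 fold changes of −0.54, 0.36 and −0.54. The activity of the complex was not tested.

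Over all tested genes, 52.7% had log2 fold changes below 0 and 6.18% were called lower. In the pentose phosphate pathway all 8 genes were tested and had log2 fold changes below 0. *Pgd* (−1.01, edgeR adjusted p = 0.0125) and *Taldo1* (−0.81, edgeR adjusted p = 0.0288) were the 2 called lower. Among 17 tricarboxylic acid cycle genes, all tested, *Ogdh* alone was called (−0.67, edgeR adjusted p = 0.0466), with 12 below 0. None of 12 tested genes of gluconeogenesis and glycogen was called by edgeR, against 3 at an unadjusted p under 0.05 and 1 called by DESeq2, and 9 were below 0. Of 19 transcription factors and sensors of glycolysis, 18 were tested and 2 were called. *Arnt*, the partner of the hypoxia-inducible factors, was higher (0.69, edgeR adjusted p = 0.0221), and *Egln3*, an oxygen sensor and known hypoxia target, was lower (−3.11, SE 0.61, edgeR adjusted p = 0.0157). *Egln3* had 2.59, 3.003, 11.2 and 14.7 CPM in WT1 to WT4 and 0.696 to 1.01 CPM in HOMO, with WT3 and WT4 the highest. *Hif1a* and *Myc*, named after their values were seen, were not called, with log2 fold changes of 0.49 (SE 0.32) and 0.71 (SE 0.54).

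**Figure D5:**
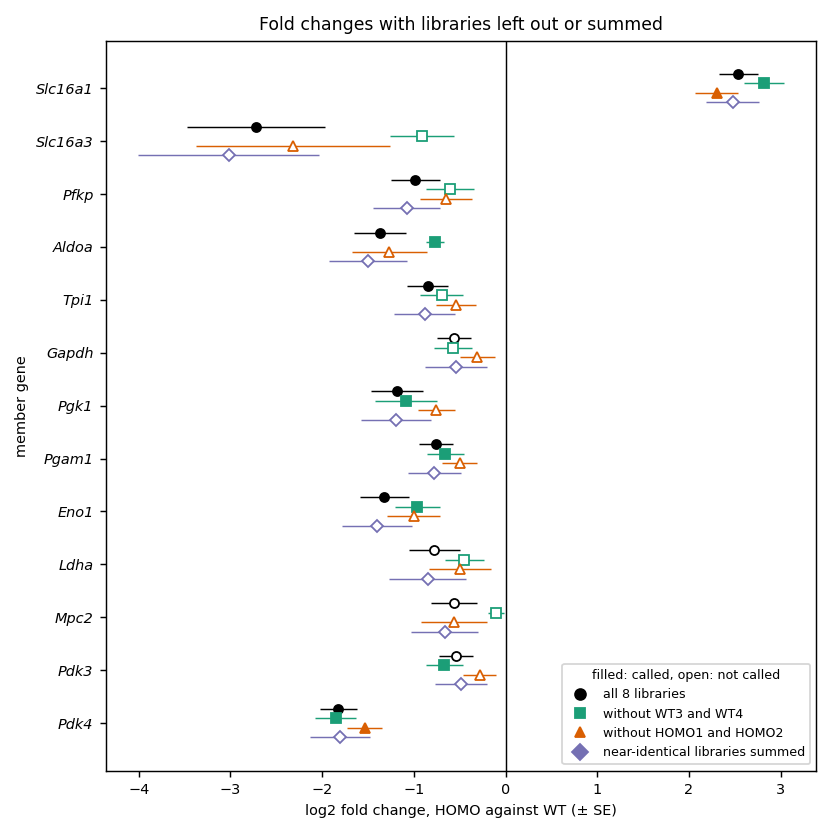
Log2 fold change of HOMO against WT with standard errors (x axis) for the 13 members without overlap (y axis), with all 8 libraries, without WT3 and WT4, without HOMO1 and HOMO2, and with near-identical libraries summed. Filled symbols are called and open ones are not. *Slc16a1* and *Pdk4* are filled in the first 3 fits, *Slc16a3* moves from −2.73 to −0.91 without WT3 and WT4, and all symbols of the fit on summed libraries are open.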

How the data were processed

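The authors sequenced poly(A)-selected RNA of pFBs after library preparation with a NEBNext Ultra kit, aligned the reads to mm10 with STAR and counted them per gene with featureCounts, per the labels and the study's methods. The deposited values are raw counts per gene symbol, not normalized. The deposited table's name says that outliers were taken out, and which ones is not given in the sources used here.

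Counts of all 8 libraries were fitted with edgeR 4.0.16 (R 4.3.3) by its quasi-likelihood F test of genotype after TMM scaling and filterByExpr, adjusted over 14150 genes. CPM are TMM-scaled, log2 CPM has a prior count of 2, and standard errors are the log2 fold change over the square root of F. The thresholds are those of the study, which used DESeq2, and DESeq2 1.42.0 was an alternative. Exon lengths and positions are from GENCODE M21 (GRCm38, the same assembly as mm10). Near-identical copies were sought with BLAST+ 2.17.0 at 95% identity over 150 bases. The fit was also run on simulated counts. Their libraries were drawn independently, without near-identical pairs, so the simulation cannot show how the fit performs on these libraries. Depth limits precision as given by the floor of 3 counts, which covers counting error only.

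The members and lists were chosen with earlier results of these data known. All members were named. Values in every library were given for called members, for members whose genotypes do not overlap and for the most abundant member per role, and of the other lists at most 4 called genes. The alternatives were other scalings and filters, robust dispersion, a replicate block, leaving out each library and summing near-identical libraries. Leaving out WT3 and WT4, leaving out HOMO1 and HOMO2, and adding the counts of copies were chosen after seeing the data.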

Additional observations from a re-analysis of the deposited data

Results flagged for a closer look

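In each genotype, a library was marked where its gap to the nearest of the other 3 exceeded Dixon's critical value, as a share of the range of the 4 log2 CPM values. Of 74 groups of 4 examined, 4 were marked, and chance marks about 1 in 20. WT3 stood apart in *Pfkfb2*, at 2.72 log2 CPM where the other WT libraries had 4.71 to 4.95, and in *Ldha*, at 10.14 against 9.10 to 9.25. HOMO4 was marked in *Pfkfb3*, at 5.64 log2 CPM against 5.40 to 5.43 in the other HOMO libraries. HOMO3 was marked in *Pdhb*, at 6.02 log2 CPM against 6.09 in the other 3.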

How the results depend on the processing

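The near-identical pairs limit these results most. Against 1716 called genes and 9 called members, DESeq2 called 2913 genes, summing the near-identical libraries left 0 genes and 0 members called by edgeR (2057 genes and 9 members at an unadjusted p under 0.05), leaving out WT3 and WT4 together gave 3117 genes, and leaving out HOMO1 and HOMO2 together gave 76 genes and 2 members. With each library left out in turn, 507 to 2192 genes and 2 to 11 members were called. The labels give both genotypes replicate numbers 1 to 4. Same-numbered libraries did not deviate together (r from −0.12 to 0.01), beside −0.17 to 0.17 for differently numbered ones. No pairing by number was thus seen, which does not show that there was none. With the replicate block 947 genes were called and 9 members, and *Pfkfb2* turned to 0.10. The mean difference of −0.41 was −0.12 as a median over members and −0.63 as the log2 of summed CPM, and −0.47 to −0.32 with each library left out. That of *Slc2a4* ran from −0.119 to 0.0123 CPM. Of 683 log2 fold changes of members under alternatives, 593 kept their direction and side of the threshold, 53 lost a call and 10 gained one. Only the 9 called members had a call to lose, so the 53 all fell among these. The other 27 turned, all in members that were not called. Without WT3 and WT4, *Gpi1* turned to 0.026, *Pfkl* to 0.22, *Pfkm* to 0.16, *Pfkfb4* to −0.042, *Pgam2* to 0.11, *Ldhb* to 0.16 and *Pdk1* to 0.20, and with near-identical libraries summed *Pfkfb1* turned to 0.016, *Pfkfb2* to 0.0014 and *Pcx* to 0.026. With each library left out, *Hk1* ran from −0.064 to 0.15, *Pfkm* from −0.20 to 0.023, *Pfkfb1* from −0.53 to 0.25, *Pfkfb2* from −0.40 to 0.084, *Pfkfb4* from −0.061 to 0.13, *Ldhb* from −0.34 to 0.022 and *Pcx* from −0.21 to 0.087. The cause of these changes was not tested. With no filter on low counts, when 27324 genes were tested, *Pfkp* and *Tpi1* lost their calls.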

Other observations

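A few genes of sugar metabolism that are typical of liver and kidney had most of their counts in HOMO4. The glucose transporter *Slc2a2* had 48 counts in HOMO4 against at most 3 elsewhere, and the pyruvate kinase *Pklr* 14, *Fbp1* 8 and *G6pc* 4 against 0 in all other libraries. The epithelial markers *Krt8* and *Epcam* had 96 and 45 counts in HOMO4. Other markers of the same list were not confined to it. *Krt18* was highest in WT3 (4.65 CPM, 1.85 in HOMO4) and *Ager* in HOMO2 (3.42 CPM, 2.36 in HOMO4). *Cdh1* had 1.16 to 2.21 CPM over the HOMO libraries, HOMO4 being the highest. The summed epithelial markers were higher in HOMO3 (19.0 CPM) than in HOMO4 (13.7 CPM). The lung epithelial markers *Sftpc* and *Scgb1a1* were counted elsewhere, with 48 and 110 counts in HOMO2, 99 and 130 in HOMO3, and at most 3 in the other 6 libraries. These genes were named after their values were seen, and none of *Slc2a2*, *Pklr*, *Fbp1* and *G6pc* is a member or was tested.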
